A study of Mus musculus with 4 samples.

Results

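The genes described here are 9 members of the transforming growth factor beta (TGF-beta) and activin pathway, taken by symbol from the 25239 gene symbols in each count table. They are the ligand genes Tgfb1, Tgfb2, Tgfb3, Inhba and Inhbb, the receptor genes Tgfbr1 and Tgfbr2, the inhibitor gene Smad7 and the target gene Tgfbi. All 9 were found in all 4 tables. A mean of at least 10 reads over the 4 libraries was reached by 8 of them, and Inhbb did not reach it.

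RNA was sequenced from B16 melanoma, a transplantable mouse tumor placed subcutaneously in both flanks of B6 mice and treated on day 7. Tumors were harvested 12 days after ACT (an abbreviation left unexplained in the labels). Every group shares CTX, also unexplained, injected intraperitoneally 1 day ahead of ACT. For the CTX library the labels list only PBS, put into left tumors, with neither T cells nor virus, and the flank that was sequenced is not stated. For MV (L.i.t.), left tumors were injected with free MV and TRP-1 T cells were given intravenously. Remote tumor (no MV) is the right, uninjected flank of that same group. For TRP-1MV, the T cells given intravenously were TRP-1MV cells, and no tumor injection is listed. The table headers write MYXV for MV, the usual abbreviation of myxoma virus. MV (L.i.t.) and TRP-1MV are called the 2 MV-treated tumors here. Against CTX both differ by the T cells given as well as by MV, and these cannot be told apart there. Each group has 1 library. Although the labels give n = 2, pooling of mice is not described, so no spread between animals was measured and no test between groups was possible.

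TGF-beta ligands are secreted in a latent complex and must be released before they bind the type II receptor Tgfbr2, which recruits and activates the type I receptor Tgfbr1. Activins are dimers of inhibin beta subunits, Inhba giving activin A and Inhbb activin B, and use the receptors Acvr2a, Acvr2b and Acvr1b. Both branches activate Smad2 and Smad3, which act with Smad4 in the nucleus. Smad7 is induced by the pathway and blocks the type I receptors, and Tgfbi is a secreted matrix protein named for its induction by TGF-beta. In tumors TGF-beta is known for restraining T cells and shaping macrophages and stroma.

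Total counts ranged from 12375526 in MV (L.i.t.) to 21790759 in Remote tumor (no MV). A count of 0 allowed up to 0.222 CPM in the shallowest library and 0.151 CPM in the deepest. CPM here is the count of a gene per 1e6 counts after TMM scaling, a scaling that assumes most genes are alike between libraries. The rule for calling a gene was a ratio of scaled counts of at least 2, in either direction, with a 95% exact interval that excluded equality. Intervals, in brackets, cover counting error only. The source field of the labels reads melanoma cell line, and the protocol for extraction speaks of tumor tissue. All 8 melanocyte markers had reads in every library, with a summed level of 25626 CPM in CTX, 26083 in the remote tumor, 6030 in MV (L.i.t.) and 5642 in TRP-1MV.

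Against CTX, Tgfb1, Inhba, Smad7 and Tgfbi were higher in MV (L.i.t.) and in TRP-1MV, and no member was lower. Inhba differed by far the most, at 142-fold [60.3, 438] in MV (L.i.t.) and 199-fold [84.97, 615] in TRP-1MV. Tgfbi stood at 15.7-fold and 25.2-fold, Smad7 at 5.04-fold and 5.10-fold, and Tgfb1 at 4.71-fold and 5.72-fold. Tgfb2, Tgfb3 and the 2 receptor genes did not pass the rule in either comparison. In the remote tumor no member passed it against CTX. The members called were thus 4 of the 8 with enough reads, where 18.1% of 13357 genes were called higher in MV (L.i.t.) and 18.5% in TRP-1MV. For the direction in which no member was called, the shares of all genes were 11.1% and 11.7%. Scaled on total counts in place of TMM, 2955 genes were higher and 890 lower in MV (L.i.t.), against 2411 and 1488, and 2973 and 931 in TRP-1MV, against 2476 and 1559, with the same 4 members higher. In bulk RNA more cells of a type and more RNA per cell cannot be told apart. Both comparisons use the same CTX library, and Inhba reached the minimum count only through the 2 MV-treated tumors.

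**Figure D1:**
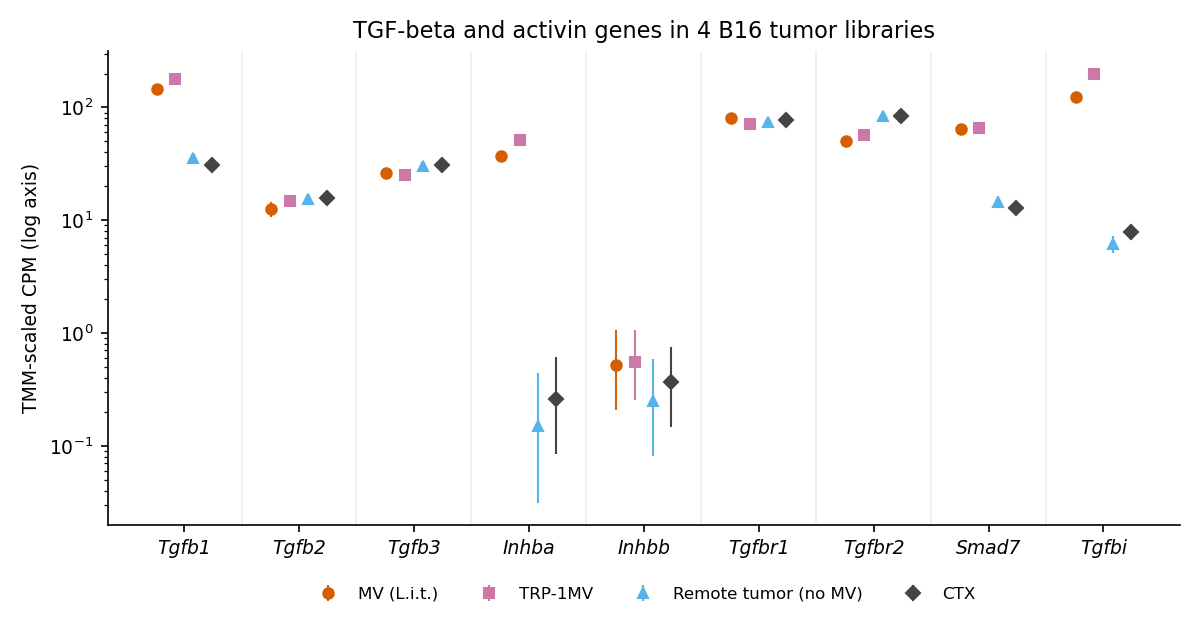
TMM-scaled CPM (vertical log axis) of the 9 members in each of the 4 libraries, 1 point per library, with 95% exact Poisson intervals. Tgfb1, Inhba, Smad7 and Tgfbi are separated into a high pair, MV (L.i.t.) and TRP-1MV, and a low pair, Remote tumor (no MV) and CTX, while Tgfb2, Tgfb3 and Tgfbr1 lie within 1.26-fold over the 4 libraries.

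Up to 250 bases before the start of transcription are shown for the higher members Tgfb1, Inhba and Tgfbi and for Inhbb, the near relative of Inhba that stayed at a handful of reads. RefSeq (GRCm38.p6) sequences were used for 7 of the 9 members, and no window of Smad7 or Tgfb3 was searched. The RefSeq start of Tgfbi lies inside the gene span of the annotation, so the 63 bases of its window that fall within the span are not printed, and its distances are from the RefSeq start. Both strands were searched for 6 motifs: the Smad box CAGAC, its palindrome GTCTAGAC, the AP-1 site TGANTCA, the CRE TGACGTCA, the GC box GGGCGG and the TATA box TATAAA. Capitals mark every match in these 4 windows.
Tgfb1, chr7:25686752-25687001, plus strand: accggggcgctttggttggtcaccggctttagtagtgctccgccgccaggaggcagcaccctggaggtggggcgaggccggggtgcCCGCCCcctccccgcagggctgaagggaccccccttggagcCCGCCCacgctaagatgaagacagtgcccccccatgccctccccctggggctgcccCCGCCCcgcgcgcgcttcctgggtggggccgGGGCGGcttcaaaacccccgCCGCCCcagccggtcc
Inhba, chr13:16011601-16011850, plus strand: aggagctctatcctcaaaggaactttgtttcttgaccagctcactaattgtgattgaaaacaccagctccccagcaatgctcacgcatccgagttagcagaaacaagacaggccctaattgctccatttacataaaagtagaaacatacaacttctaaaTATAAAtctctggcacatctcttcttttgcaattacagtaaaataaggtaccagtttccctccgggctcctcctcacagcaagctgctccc
Inhbb, chr1:119422249-119422498, minus strand: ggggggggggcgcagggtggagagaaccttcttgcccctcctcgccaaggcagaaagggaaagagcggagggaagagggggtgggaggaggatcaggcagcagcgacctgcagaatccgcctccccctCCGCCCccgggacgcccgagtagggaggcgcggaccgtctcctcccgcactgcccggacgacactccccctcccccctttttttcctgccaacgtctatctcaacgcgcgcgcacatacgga
Tgfbi, chr13:56609336-56609522, plus strand: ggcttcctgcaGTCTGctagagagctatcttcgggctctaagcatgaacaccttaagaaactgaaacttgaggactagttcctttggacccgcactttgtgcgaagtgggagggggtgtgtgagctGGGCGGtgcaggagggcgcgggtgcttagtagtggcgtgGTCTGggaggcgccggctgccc

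No motif was found in all 3 searched windows of higher genes, and the GC box was found in those of Tgfb1 and Tgfbi. Smad7, also higher, was not searched, so these matches do not cover all higher members. The Tgfb1 window held 5 GC boxes and was 75.2% G or C, and the Inhba window held a TATA box, beginning 91 bases before the start, and was 43.2% G or C. The Tgfbi window held 2 Smad boxes, beginning 239 and 85 bases before the start, and 1 GC box. Across 32851 promoter windows of the same length in the table, 42.2% held a Smad box, 32.7% a GC box, 12.4% a TATA box, 6.75% an AP-1 site, 1.55% a CRE and 0.167% the palindrome. The Inhbb window held 1 GC box. These matches describe letters in the windows only.

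Among the ligands, Tgfb1 encodes TGF-beta 1, the isoform most associated with leukocytes (chromosome 7, 25687002 to 25705077, mm10, ENSMUSG00000002603.15). It had 1971 reads in MV (L.i.t.), 2855 in TRP-1MV, 711 in the remote tumor and 594 in CTX, or 146, 177, 35.7 and 31.0 CPM. Both MV-treated tumors were high and both others low. The log2 ratio to CTX was 2.24 [2.10, 2.37] in MV (L.i.t.) and 2.52 [2.39, 2.65] in TRP-1MV. The remote tumor exceeded CTX by 0.21 [0.05, 0.37], an interval that excludes equality at a ratio well under 2.

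Tgfb3 encodes TGF-beta 3 (chromosome 12, 86056745 to 86079041). It had 353, 405, 608 and 590 reads in MV (L.i.t.), TRP-1MV, the remote tumor and CTX, or 26.1, 25.1, 30.5 and 30.8 CPM. Tgfb2, for TGF-beta 2 (chromosome 1, 186622792 to 186705989), had 170, 239, 305 and 303 reads, or 12.6, 14.8, 15.3 and 15.8 CPM. The 4 libraries therefore lay close together for both genes. For Tgfb3 the log2 ratio to CTX was −0.24 [−0.43, −0.04] in MV (L.i.t.) and −0.29 [−0.48, −0.11] in TRP-1MV, and for Tgfb2 it was −0.33 [−0.61, −0.05] and −0.09 [−0.34, 0.16]. Scaling on total counts put Tgfb3 at 0.01 in MV (L.i.t.) and Tgfb2 at 0.15 in TRP-1MV, so neither gene has a direction here. Both genes overlap unnamed gene models on the opposite strand, by 124 exonic bases for Tgfb2 and by 257 and 163 for Tgfb3. The strand setting of the counting is not given in the sources used here, so such reads cannot be told apart.

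Levels of different genes were compared as CPM per kilobase of merged exons. In CTX the 3 TGF-beta ligand genes summed to 17.97 CPM per kb, of which Tgfb1 made up 34.2%, Tgfb3 50.6% and Tgfb2 15.2%. The remote tumor was alike, with 37.8%, 48.1% and 14.1% of 18.8 CPM per kb. In MV (L.i.t.) the sum was 38.8 CPM per kb and Tgfb1 made up 74.5%, and in TRP-1MV it was 45.2 and 77.9%. Per length, the ratio of Tgfb1 to Tgfb3 was 0.676 [0.602, 0.758] in CTX, 0.785 [0.703, 0.876] in the remote tumor, 3.75 [3.34, 4.21] in MV (L.i.t.) and 4.73 [4.26, 5.26] in TRP-1MV. The order of Tgfb1 and Tgfb3 in the 2 low libraries depends on gene length, because the merged exons of Tgfb1 span 5042 bases and its longest transcript 2573. With the longest transcript Tgfb1 made up 49.7% in CTX and Tgfb3 37.5%, against 87.0% and 9.38% in TRP-1MV. Tgfb1 was the most abundant TGF-beta ligand gene of the 2 MV-treated tumors with either length.

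**Figure D2:**
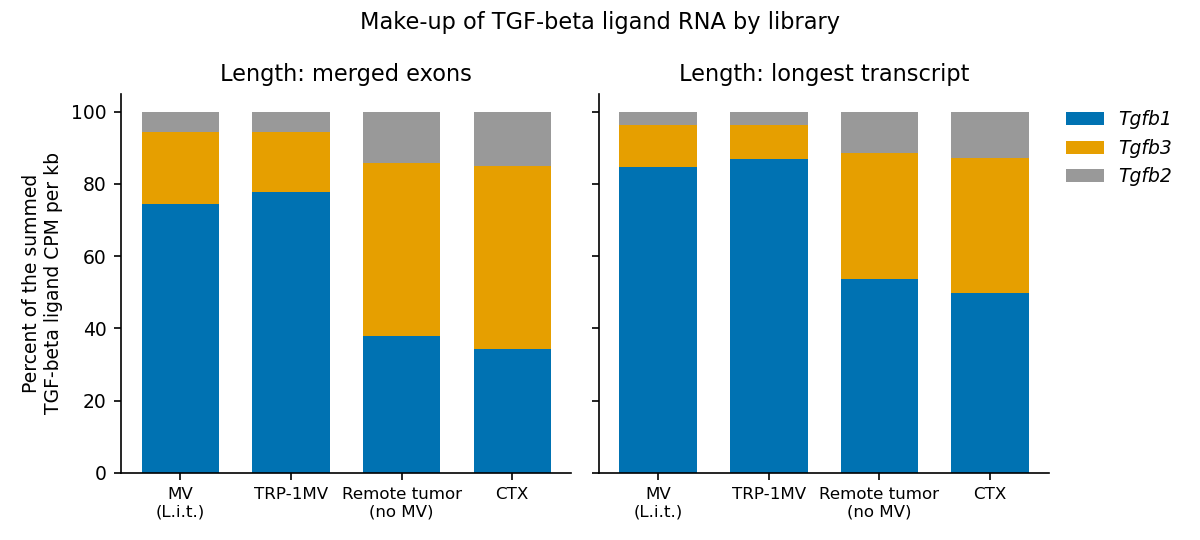
Share (percent, stacked bars) of Tgfb1, Tgfb3 and Tgfb2 in the summed TGF-beta ligand CPM per kb of each library, with gene length taken from merged exons (left) or from the longest transcript (right). Tgfb1 makes up 74.5% and 77.9% in MV (L.i.t.) and TRP-1MV by merged exons, against 37.8% in the remote tumor and 34.2% in CTX.

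Inhba encodes the inhibin beta A subunit, which pairs with itself to form activin A (chromosome 13, 16011851 to 16031621, ENSMUSG00000041324.14). It had 499 reads in MV (L.i.t.), 836 in TRP-1MV, 3 in the remote tumor and 5 in CTX, or 36.9, 51.9, 0.151 and 0.261 CPM. The gene was near the detection limit in the 2 low libraries, and in the 2 high ones its level per length was 5.78 and 8.12 CPM per kb, beside 7.72 and 7.43 for Tgfb3. The log2 ratio to CTX was 7.15 [5.91, 8.78] in MV (L.i.t.) and 7.64 [6.41, 9.26] in TRP-1MV. Between the remote tumor and CTX it was −0.79 [−3.48, 1.57], so a difference was not detectable at this depth. A pseudogene, B230303A05Rik, lies on the opposite strand within the span of Inhba, shares no exonic base with it and had 7, 17, 0 and 0 reads.

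Inhbb encodes the beta B subunit of activin B (chromosome 1, 119415465 to 119422248). It had 7, 9, 5 and 7 reads in MV (L.i.t.), TRP-1MV, the remote tumor and CTX, or 0.518, 0.559, 0.251 and 0.365 CPM. All 4 intervals overlapped, and the ratio to CTX in TRP-1MV, 1.53 [0.507, 4.84], allowed differences of several fold either way. The ratio of Inhba to Inhbb per length was 0.476 [0.119, 1.74] in CTX and 61.9 [32.4, 136] in TRP-1MV. The activin RNA of the 2 MV-treated tumors was thus almost all for the beta A subunit.

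Among the receptors, Tgfbr1 (chromosome 4, 47353222 to 47414931) encodes the type I receptor kinase, also called ALK5. It had 1081 reads in MV (L.i.t.), 1160 in TRP-1MV, 1469 in the remote tumor and 1493 in CTX, or 80.0, 72.02, 73.8 and 77.9 CPM. Its 4 levels lay within 1.11-fold of each other, the narrowest range of the 9 members. Its log2 ratio to CTX was 0.04 [−0.08, 0.15] in MV (L.i.t.) and −0.11 [−0.22, −0.00] in TRP-1MV, which became 0.13 when scaled on total counts.

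Tgfbr2 encodes the type II receptor, which binds the ligand (chromosome 9, 116084293 to 116175360). It had 685, 910, 1658 and 1596 reads in MV (L.i.t.), TRP-1MV, the remote tumor and CTX, or 50.7, 56.5, 83.3 and 83.2 CPM. Its level was below CTX in both MV-treated tumors, with log2 ratios of −0.72 [−0.85, −0.59] and −0.56 [−0.68, −0.44], under the 2-fold rule. Within a library, the ratio of Tgfbr1 to Tgfbr2 per length was 1.17 [1.09, 1.26] in CTX, 1.11 [1.03, 1.19] in the remote tumor, 1.597 [1.46, 1.74] in TRP-1MV and 1.98 [1.80, 2.18] in MV (L.i.t.). This ratio uses no scaling between libraries. Over the same libraries the summed melanocyte markers were 4.25-fold lower in MV (L.i.t.) than in CTX and 4.54-fold lower in TRP-1MV, and their part in the Tgfbr2 difference was not tested.

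Smad7 encodes the inhibitory Smad that the pathway itself induces (chromosome 18, 75367529 to 75395935, ENSMUSG00000025880.11). It had 874 reads in MV (L.i.t.), 1054 in TRP-1MV, 291 in the remote tumor and 246 in CTX, or 64.7, 65.4, 14.6 and 12.8 CPM. The MV-treated tumors were level with each other, at a log2 ratio of 0.02 [−0.11, 0.15], and both lay above the others. Against CTX the log2 ratio was 2.33 [2.13, 2.54] and 2.35 [2.15, 2.56]. The remote tumor stood at 0.19 [−0.06, 0.44].

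Tgfbi encodes the matrix protein TGFBI, which is also made by macrophages (chromosome 13, 56609523 to 56639562, ENSMUSG00000035493.10). It had 1666 reads in MV (L.i.t.), 3191 in TRP-1MV, 122 in the remote tumor and 151 in CTX, or 123, 198, 6.13 and 7.87 CPM. Per length of merged exons it stood at 32.7 and 52.5 CPM per kb in the 2 MV-treated tumors, beside 28.9 and 35.2 for Tgfb1. By longest transcript this order turned, with 41.1 and 66.0 for Tgfbi and 56.7 and 68.9 for Tgfb1. By merged exons Tgfbi in CTX stood at 2.09, below all members but Inhba and Inhbb. Its log2 ratio to CTX was 3.97 [3.73, 4.22] in MV (L.i.t.), 4.65 [4.42, 4.90] in TRP-1MV and −0.36 [−0.72, −0.01] in the remote tumor.

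**Figure D3:**
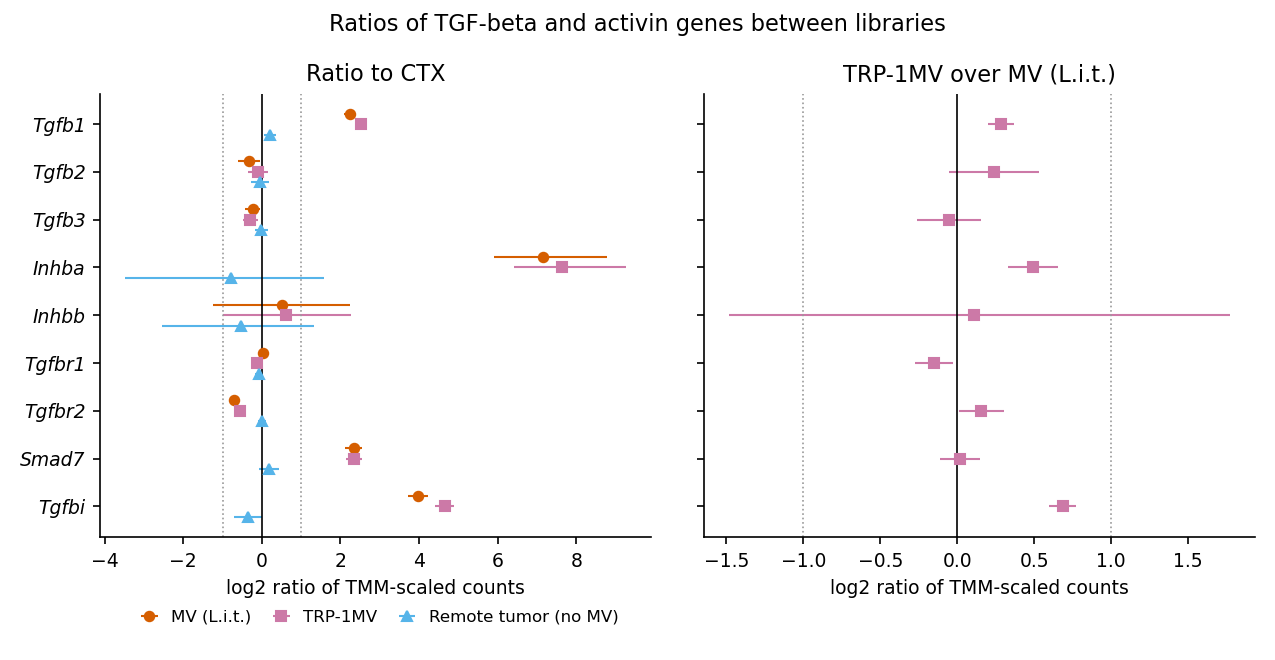
Log2 ratio of TMM-scaled counts (horizontal axis) for each member, against CTX (left) and between TRP-1MV and MV (L.i.t.) (right), with 95% exact intervals of counting error and dotted lines at a ratio of 2 in each direction. Inhba lies at 7.15 and 7.64 against CTX, while every member lies inside the dotted lines in the right panel, where the interval of Inhbb crosses them.

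The 2 tumors of the mice given injected virus were also set side by side. Against the remote tumor, MV (L.i.t.) had the same 4 members higher, where 18.6% of all genes were called higher, and none lower, where 11.7% were. The fold was 245 [83.3, 1192] for Inhba with 3 reads in the remote tumor, 20.1 [16.7, 24.4] for Tgfbi, 4.42 [3.87, 5.07] for Smad7 and 4.08 [3.75, 4.45] for Tgfb1. TRP-1MV against the remote tumor gave the same 4 members, with all-gene shares of 18.8% higher and 12.1% lower. These comparisons share libraries with those against CTX.

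In the remote tumor against CTX no member passed the rule, nor did many genes at all (0.457% higher, 0.247% lower). The 8 members with enough reads had a median log2 ratio of −0.03 and ran from −0.79 for Inhba to 0.21 for Tgfb1, beside a median of −0.00 over all genes.

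TRP-1MV and MV (L.i.t.) were compared directly. No member passed the rule, as few genes did (0.562% higher, 0.217% lower). Tgfbi was 1.61-fold [1.51, 1.71], Inhba 1.41-fold [1.26, 1.57] and Tgfb1 1.22-fold [1.15, 1.29] the level in MV (L.i.t.), and these intervals excluded equality. So did those of Tgfbr2, at 1.11-fold [1.01, 1.23], and, in the other direction, of Tgfbr1, at 0.900-fold [0.828, 0.979]. Smad7, at 1.01-fold [0.924, 1.11], and Tgfb3, at 0.963-fold [0.833, 1.11], did not differ beyond counting error. The summed macrophage and monocyte markers were 1.42-fold and the summed neutrophil markers 1.58-fold higher in TRP-1MV. In the macrophage and monocyte list Ccr2 went the other way, with 87 reads in MV (L.i.t.) and 69 in TRP-1MV, a log2 ratio of −0.59 [−1.06, −0.12]. The neutrophil list gene Cxcr2 had 11 and 7 reads. Dendritic cell markers were 1.42-fold and platelet markers 1.46-fold higher, and T cell markers stood at 0.995-fold. Ccr7, which T cells also express, gave 1405 of 2077 dendritic cell marker reads in MV (L.i.t.) and 2463 of 3505 in TRP-1MV, while Flt3 had 29 and 24, Xcr1 13 and 8 and Clec9a 9 and 5. The part of these cells in the differences was not tested.

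The pathway holds 74 other genes in 7 lists by role, of which 65 reached the minimum count. In MV (L.i.t.) against CTX 22 of the 65 were higher and 3 lower, where 18.1% and 11.1% of all genes were, with a median log2 ratio of 0.60, beside −0.05 over all genes. In TRP-1MV 22 were higher and 4 lower, where 18.5% and 11.7% of all genes were, with a median of 0.58 beside −0.07. These all-gene shares are the background for each list that follows. In the remote tumor none of the 65 passed, and the median was 0.02. Between TRP-1MV and MV (L.i.t.) none passed either. Of the 65, Itgb8, Fst, Cdkn2b and Ldlrad4 reached the minimum only through the MV-treated tumors, and all 4 were among the higher genes. With the minimum taken from the remote tumor and CTX alone, 18 of 61 pathway genes were higher in each MV-treated tumor, where 12.7% and 13.1% of all genes were. At that minimum 3 were lower in MV (L.i.t.) and 4 in TRP-1MV, where 12.0% and 12.6% of all genes were.

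Genes that hold or release latent TGF-beta had 5 of 10 members higher in both MV-treated tumors, and none lower, or 4 of 9 without Itgb8. Thbs1, encoding thrombospondin 1, an activator of latent TGF-beta, had 10680 reads in MV (L.i.t.), 19721 in TRP-1MV, 212 in the remote tumor and 262 in CTX. Its log2 ratio to CTX was 5.85 [5.68, 6.04] and 6.49 [6.31, 6.67]. The lowest were the latent binding protein genes Ltbp3, at −0.46 in MV (L.i.t.), and Ltbp1, at −0.62 in TRP-1MV, neither past the rule. The other 4 higher genes, named after their values were seen, were Lrrc32, which anchors latent TGF-beta on regulatory T cells and platelets, at 2.43 and 2.66, and Nrros, which does so on myeloid cells, at 1.64 and 2.20. Furin, the protease that cuts the precursor, stood at 1.40 and 1.49, and Itgb8, the subunit of an activating integrin, at 2.01 and 1.67 with 17, 16, 7 and 6 reads.

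Of the other ligands of the family only Inha and Gdf11 reached the minimum. Gdf11, an activin-like ligand, was lower in both, with 168, 188, 719 and 744 reads and log2 ratios of −1.64 [−1.89, −1.40] and −1.73. Inha, the alpha subunit of the inhibins, stood at 0.84 and 0.97. Inhbc, Inhbe, Mstn, Nodal, Lefty1 and Lefty2 had 3 reads or fewer in every library.

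Among 7 other receptors 1 was higher and 1 lower in each comparison, 14.3% each way, which is near the shares over all genes. Tgfbr3, the co-receptor betaglycan, had 308, 322, 151 and 146 reads and log2 ratios of 1.58 [1.29, 1.88] and 1.39 [1.11, 1.69]. Acvrl1, a type I receptor of endothelium also known as ALK1, had 343, 480, 1567 and 1536 reads and log2 ratios of −1.66 [−1.83, −1.49] and −1.43 [−1.58, −1.28]. The summed endothelial markers stood at 2.05-fold the CTX level in MV (L.i.t.) and 2.17-fold in TRP-1MV. The part of endothelial cells in the Acvrl1 difference was not tested. The activin receptors Acvr2a, at 0.60 and 0.34, Acvr2b, at 0.36 and 0.17, and Acvr1b, at 0.29 and 0.33, did not pass, and are named here as the receptors of the Inhba product.

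Of 5 antagonist genes only Fst was higher in both, where 18.1% and 18.5% of all genes were. Fst reached the minimum only through the MV-treated tumors. At the minimum from the remote tumor and CTX, none of 4 antagonist genes was higher, where 12.7% and 13.1% of all genes were. Fst encodes follistatin, which binds and neutralises activin, and had 25, 48, 0 and 2 reads, a log2 ratio of 4.15 [2.15, 7.27] in MV (L.i.t.) and 4.84 [2.91, 7.92] in TRP-1MV. Bambi, a pseudoreceptor gene, stood at −0.95 in MV (L.i.t.) and was lower in TRP-1MV at −1.11 [−1.42, −0.80], a call lost on the total-count and housekeeping scales, which add 0.24 to each of these log2 ratios.

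The Smad signal transducers had medians of 0.52 and 0.48. Smad9, which serves bone morphogenetic proteins, was the only 1 of 6 past the rule, a share of 16.7% near that of all genes, at 1.19 [0.86, 1.53] and 1.41 [1.10, 1.73]. Smad5 was the lowest at −0.45 and −0.55. Smad2, at 0.38 in both, Smad3, at 0.41 and 0.38, and Smad4, at 0.62 and 0.58, did not pass.

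Among 10 intracellular inhibitors 3 were higher and none lower, where 18.1% and 18.5% of all genes were higher. Skil, whose product SnoN represses Smad targets, had 1649, 2090, 394 and 403 reads and log2 ratios of 2.54 [2.38, 2.70] and 2.63 [2.47, 2.78]. Its folds of 5.81 and 6.17 lay near those of Smad7. Tgif1, a Smad corepressor gene, stood at 1.56 and 1.57 and Ppp1r15a at 1.76 and 1.79. Nedd4l, a ubiquitin ligase gene, was the lowest at −0.88 and −0.84, not past the rule.

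Of 25 target genes 11 were higher and 1 lower in both comparisons, with medians of 0.77 and 0.74 beside −0.05 and −0.07 over all genes. Without Cdkn2b and Ldlrad4, at the minimum from the remote tumor and CTX, 9 of 23 were higher, where 12.7% and 13.1% of all genes were. Many of them also respond to other signals. The highest ratio was that of Ldlrad4, an inhibitor of the pathway, at 5.03 [2.41, 10.39] and 5.30 [2.72, 10.64] with 23, 33, 4 and 1 reads, Cdkn2b being known only by a lower bound. The lowest was the chromatin protein gene Hmga2, with 444, 486, 2610 and 2576 reads and log2 ratios of −2.03 [−2.18, −1.89] and −2.15 [−2.30, −2.01]. Genes named after their values were seen include Ccn1, a matrix signalling gene, at 3.97 and 3.94, and Junb, an AP-1 subunit gene, at 3.28 and 3.40. Zeb1, a repressor of epithelial genes, stood at 3.43 and 3.88. Cdkn2b, the cell cycle inhibitor p15, had 53 and 88 reads and 0 in CTX. With CTX set to the floor of 3 counts its ratios were 25.1-fold and 34.9-fold. The lower limits of its log2 ratio were 4.30 and 4.80. Of the targets linked to matrix and myofibroblasts, Ccn2, at 2.13 and 2.04, and the actin-binding gene Tagln, at 1.30 and 1.11, were also higher. Col1a1, at 0.22 and 0.20, Col1a2, at −0.29 and −0.32, Fn1, at 0.29 and 0.65, and Acta2, at 0.79 and 0.68, did not pass.

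**Figure D4:**
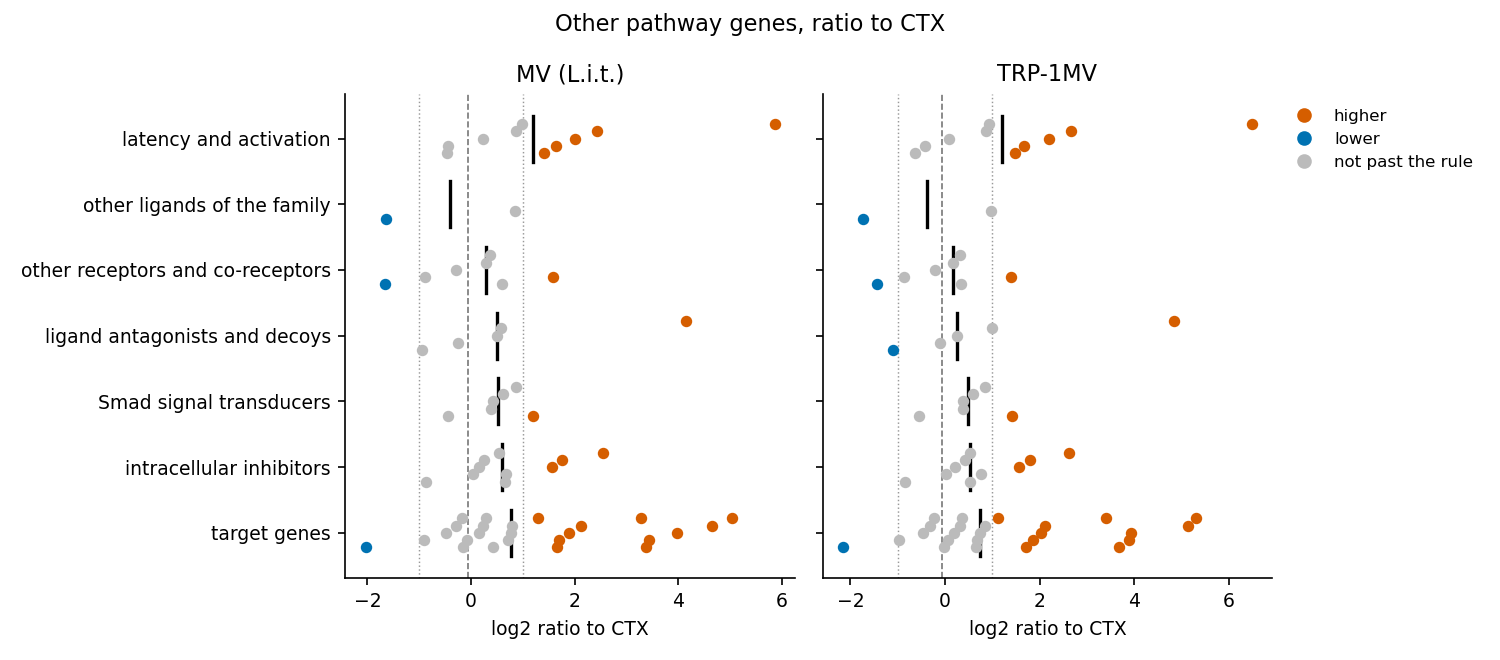
Log2 ratio to CTX (horizontal axis) of the 65 other pathway genes with enough reads, 1 point per gene, by list, in MV (L.i.t.) (left) and TRP-1MV (right). Black bars are list medians, the dashed line is the median of all genes and dotted lines mark a ratio of 2. Thbs1 is the point farthest right, at 5.85 and 6.49, and Hmga2 the farthest left, at −2.03 and −2.15.

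The sister branch of bone morphogenetic proteins was set beside these lists. Of 15 genes listed with it, not all of them its ligands or receptors, 5 reached the minimum count. Bmpr2, Gdf15 and Nog were higher in both MV-treated tumors, with no gene lower. Of these only Bmpr2 encodes a receptor, and none encodes a bone morphogenetic protein. Nog, with 46, 51, 0 and 2 reads, reached the minimum only through those tumors, and 2 of 4 were higher without it, where 12.7% and 13.1% of all genes were. Bmp2, Bmp4, Bmp5, Bmp6, Bmp7, Bmp8a and Bmp8b had 8 reads or fewer in every library.

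Markers of other cells differed between the same libraries. The 10 macrophage and monocyte markers summed to 571 CPM in MV (L.i.t.), 810 in TRP-1MV, 63.5 in the remote tumor and 52.8 in CTX. Itgam gave 2279 and 4068 of the reads in MV (L.i.t.) and TRP-1MV, and Adgre1 1544 and 2797. Mrc1 and C1qa did not pass the rule against CTX in either. The 8 neutrophil markers summed to 168, 267, 1.76 and 1.20 CPM, with Mmp8 alone giving 1929 and 3687 reads in the high libraries, while Ly6g had 1, 3, 0 and 1 reads and Retnlg was at 0 in all but TRP-1MV. The 9 T cell markers found summed to 241, 240, 9.75 and 9.86 CPM, and the 5 regulatory T cell markers to 443, 446, 5.63 and 5.89, of which Il2ra gave 5611 and 6734 reads in the high libraries and Foxp3 gave 39 and 40. The 5 B cell markers summed to 53.1, 55.8, 0.804 and 0.834 CPM and the 7 dendritic cell markers to 154, 218, 9.50 and 9.91. In CTX, Ms4a1 was at 0.

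The 6 platelet markers, of a cell rich in TGF-beta 1, summed to 92.9, 136, 4.37 and 4.64 CPM. The chemokine genes Pf4 and Ppbp made up most of these reads in the high libraries, whereas the platelet receptor gene Gp9 had 5, 0, 21 and 15 reads. The 10 fibroblast markers summed to 172, 173, 55.2 and 57.3 CPM. Thy1, which T cells also express, gave 1620 and 1958 of those reads in the high libraries, and the fibroblast gene Fap had 2 or fewer reads in every library. The 7 endothelial markers summed to 26.8, 28.3, 12.96 and 13.04 CPM. Of the 5 with enough reads only Pecam1, with 145, 178, 65 and 61 reads, and Kdr passed the rule against CTX. Cdh5 had 36, 41, 35 and 49 reads. The 7 keratinocyte markers summed to 3.55, 3.91, 0.301 and 0.417 CPM, with Krt1 at 0 in every library. Perp gave 36 of their 48 reads in MV (L.i.t.) and 43 of 63 in TRP-1MV. The part of any of these cells in the levels of Tgfb1, Inhba, Smad7 and Tgfbi was not tested.

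**Figure D5:**
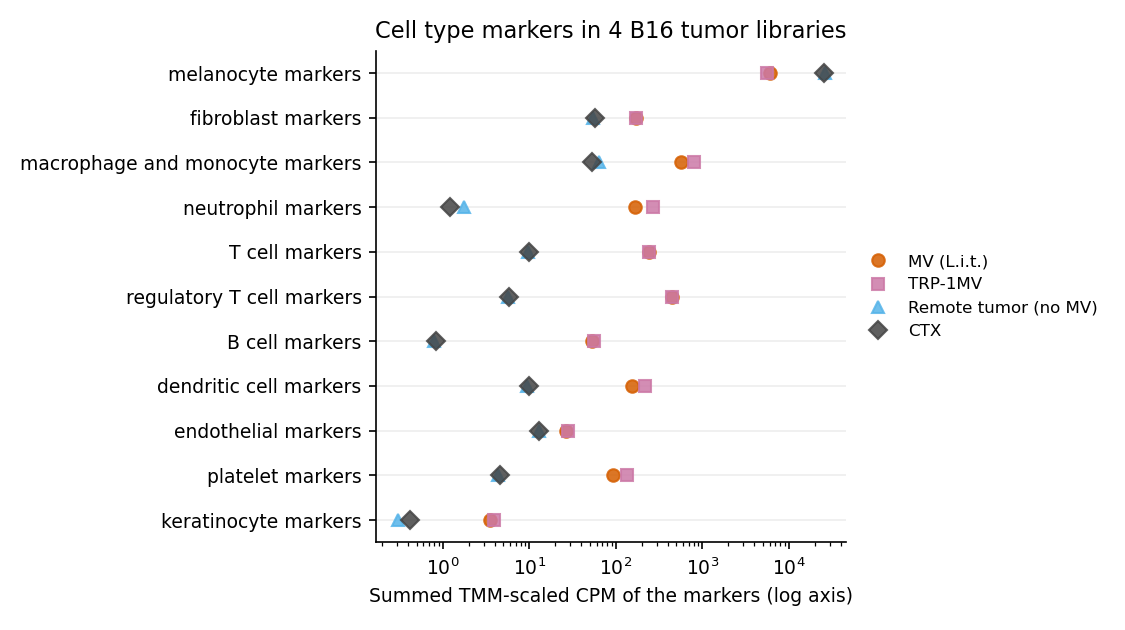
Summed TMM-scaled CPM (horizontal log axis) of the markers of each cell type in the 4 libraries, 1 point per library. Melanocyte markers stand at 25626 CPM in CTX, 6030 in MV (L.i.t.) and 5642 in TRP-1MV, while macrophage and monocyte markers stand at 571 and 810 against 52.8 in CTX.

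The genes whose pattern over the 4 libraries lay nearest to that of each higher member were found among 12687 genes, by the Euclidean distance of centred log2 CPM. With 4 libraries in a high and a low pair, many genes have such a pattern. Nearest to Tgfb1 were Pde1b at 0.0315, Cacnb3 at 0.0492 and Map3k9 at 0.0673. Nearest to Inhba were Chil3, the macrophage chitinase-like gene, at 0.0993 (617, 1088, 4 and 7 reads), Vnn3 at 0.182 (232, 429, 0 and 1 reads) and the T cell costimulator gene Icos at 0.358. Smad7 had Lrrc56 at 0.0556, Grap at 0.0728 and the chemokine receptor gene Cxcr3 at 0.0981. Tgfbi had Vsir, encoding the checkpoint protein VISTA, at 0.0929 (398, 769, 30 and 36 reads), Ccdc88b at 0.135 and Zfp182 at 0.146 (30, 63, 0 and 1 reads). All distances to Inhba depend on the prior count of 2, as Inhba had 3 reads in the remote tumor and 5 in CTX. So does that of Zfp182, which, like Vnn3, had 0 and 1 reads in these libraries.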

How the data were processed

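RNA-seq tables of 4 tumor libraries were used. The deposited values are raw counts of reads per gene symbol, without normalization. HISAT2, featureCounts and the build mm10 are named in the submitters' processing notes, with no versions. The annotation, the strand setting and how multi-mapping reads were treated: not given in the sources used here. Groups came from the sample titles.

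Counts were scaled with TMM factors (edgeR 4.0.16, R 4.3.3). The 13357 genes whose raw counts averaged 10 or more were compared in all 6 pairs. A gene was called at a ratio of at least 2 with a 95% exact conditional binomial (Clopper-Pearson) interval excluding 1 (scipy 1.17.1). A library with 0 reads was set to a floor of 3 counts for the ratio, and no ratio was given where both had 3 or fewer. The rule was tested on simulated data. Reads are not independent molecules, so intervals cover counting error only. Positions and exon lengths came from GENCODE M21 (mm10), and promoter sequences from RefSeq (GRCm38.p6).

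Named were all 9 members, the highest and lowest gene of each pathway list in the 2 main comparisons, and the 3 genes most like each called member (prior count of 2, unnamed gene models left out). All other genes named in the text were chosen after their values were seen. Single values of some list genes are not reported here. The T cell list was used without Trac, a symbol not found in the tables. Members and lists were chosen with earlier results of these data known.

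Alternatives tried were scaling by housekeeping genes (15), by upper quartile, by total counts or by size factors from DESeq2 1.42.0, TMM without ribosomal protein and mitochondrial genes or without Rn45s, Lars2, Rpph1 and Rmrp, other minimum counts, stricter rules, thinning, a prior count and another gene length.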

Additional observations from a re-analysis of the deposited data

How the results depend on the processing

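The counts of members past the rule kept the same value for every comparison and direction under the 12 alternatives of scaling, minimum count, rule, thinning and prior count. With the minimum count taken from the remote tumor and CTX alone, an alternative added after the data were seen, Inhba dropped out and 3 of 7 members were higher in each MV-treated tumor, where 12.7% and 13.1% of all genes were. The median log2 ratio of the members to CTX was then 0.04 in MV (L.i.t.) and −0.09 in TRP-1MV, against 1.14 and 1.13 over 8 members. Over the alternatives the log2 ratio to CTX ranged from 2.23 to 2.48 in MV (L.i.t.) and from 2.51 to 2.76 in TRP-1MV for Tgfb1, and from 6.60 to 7.39 and from 7.12 to 7.88 for Inhba. Scaling on total counts added 0.24 to each log2 ratio of the MV-treated tumors to CTX, as did housekeeping scaling. On total counts 27 pathway genes were higher in MV (L.i.t.), against 22 with TMM. With the longest transcript in place of merged exons, levels in CTX were 12.0 CPM per kb for Tgfb1, 3.09 for Tgfb2, 13.5 for Tgfbr1 and 2.62 for Tgfbi, and Tgfb1 made up 84.8% of TGF-beta ligand RNA in MV (L.i.t.), 87.0% in TRP-1MV, 53.6% in the remote tumor and 49.7% in CTX. No paired analysis was possible because there was only 1 library in each group. Depth limits Inhbb and, in the remote tumor and CTX, Inhba.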
